A study of Mus musculus with 33 samples.

Results

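En1, En2, Gbx2, Lmx1a, Barhl1, Emx1, Emx2, Otx1 and Lhx2 are homeodomain transcription factors that lay out the regions of the embryonic brain. They were chosen by name, by their symbol in all 5 deposited count tables, and all 9 were found among the 38393 features. The series asked how brain RNA changes in mice with mutations in a network of noncoding RNAs that includes Cyrano, a long noncoding RNA, and the microRNA miR-7. It holds 33 libraries of polyA-selected RNA, 26 from cerebellum and 7 from cortex, in 3 experiments with 3 or 4 biological replicates a group. Wild-type tissue was sequenced anew in each experiment. All mice were males of the C57Bl/6J strain, 1 month old.

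Experiment 1A set 4 cerebella with a mutated miR-7 site in Cyrano (CyrMut) against 3 wild-type ones. Experiment 1B set 4 cerebella lacking Cyrano (CyrKO, Cyrano-/-) and 4 lacking 2 miR-7 genes (Mir7DKO, Mir7a1-/-; Mir7b-/-) against the same 4 wild-type cerebella. Experiment 2 set 3 Mir7DKO against 4 wild-type libraries in the cerebellum, and again 3 against 4 in the cortex. The Mir7DKO label names no allele of Mir7-2, the other gene for which RefSeq lists a mature miR-7. Each library is whole tissue, so it holds every cell type of that tissue, and the labels name no promoter or cell type to which a mutation is limited.

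In the embryo, opposing domains of these proteins divide the neural tube into forebrain, midbrain and hindbrain. En1, En2 and Gbx2 act at or around the isthmic organiser, the signalling centre at the midbrain-hindbrain boundary, and En1 and En2 are needed for the cerebellum to form and fold. Barhl1 marks the rhombic lip, the source of cerebellar granule cells, and Lmx1a marks the roof plate that gives rise to the choroid plexus. Emx1 and Emx2, Lhx2 and Otx1 pattern the cortical side: Lhx2 sets cortical identity, Emx2 sets the area map, Emx1 marks excitatory neurons of the dorsal forebrain, and Otx1 marks deep-layer projection neurons. A month after birth the brain regions are long formed, so the libraries show which of these factors are still transcribed in adult-like tissue.

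Total counts ran from 6887853 to 24939149 a library. A level is given in CPM, a gene's count scaled to a common library total. Cyrano, listed as 1700020I14Rik, stood at 79.0 ± 6.03 CPM (SD, n = 4) in CyrKO and 1820 ± 179 CPM (SD, n = 4) in the wild type of the same experiment. The polyA-selected libraries do not measure mature microRNAs, and the hairpin features did not show a loss in the libraries labelled Mir7DKO. The Mir7b feature had 17 counts in the Mir7DKO cerebella of experiment 1B, 12 in those of experiment 2 and 2 in the Mir7DKO cortices, in 9 of these 10 libraries, and 0 counts in every other group. The Mir7-1 feature had 11 counts in the Mir7DKO cerebella of experiment 1B and 9 in their wild type. Every Mir7DKO direction below therefore rests on the label. The tissue labels were checked against Tbr1, a transcription factor of deep-layer cortical neurons, and Gabra6, a GABA-A receptor subunit of cerebellar granule cells. Tbr1 read 149.2 to 207.2 CPM in the 7 cortex libraries and 0.517 to 1.81 CPM in the 26 cerebellum libraries. Gabra6 read 811.8 to 1055 CPM in cerebellum and at most 1.27 CPM in cortex. One Mir7DKO cerebellum library of experiment 1B, replicate 2, stood apart in Lhx2 and several other genes, and is described with Lhx2.

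The microRNA that the study manipulates is shown first, because its seed defines which transcripts could carry a match. RefSeq (GRCm38.p6) gives mature miR-7a-5p from Mir7-1 at chr13:58392841-58392863 on the minus strand and from Mir7-2 at chr7:78888295-78888317 on the plus strand. It gives miR-7b-5p from Mir7b at chr17:56243017-56243040 on the plus strand. Capitals mark the seed, which is bases 2 to 8 and is the same in both.
mmu-miR-7a-5p: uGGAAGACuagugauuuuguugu
mmu-miR-7b-5p: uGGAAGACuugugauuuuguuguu
The longest annotated 3′ untranslated region of each gene was searched on the transcript strand for GTCTTCC and, shifted by 1 letter, for TCTTCCA. Of the 9 factors, 1 held a match, against 23.2% of 21039 protein-coding genes. It was Emx2, whose 1370-base region carries TCTTCCA, with the 6 letters TCTTCC starting at base 1195. Capitals mark the match.
Emx2 site: tgagtttcTCTTCCAagaccat

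Promoter windows of 300 bases, from 250 before to 50 after a RefSeq start, were found for 7 of the 9 factors, in 9 windows. They were searched for TAATTA, the core that many homeodomain proteins bind and that reads the same on both strands. A match was present in 2 of the 9 windows, against 5.29% of 32851 promoter windows. GGATTA, searched on both strands as the core bound by Otx proteins, was present in 1 of the 9, a second start of Barhl1, against 7.06% of all windows. The pair with TAATTA belongs to 1 factor of each tissue, and is printed so that the position of the match can be seen. The Barhl1 window lies at chr2:28916619-28916918 on the minus strand and the Emx2 window at chr19:59458440-59458739 on the plus strand, and capitals mark TAATTA.
Barhl1 promoter: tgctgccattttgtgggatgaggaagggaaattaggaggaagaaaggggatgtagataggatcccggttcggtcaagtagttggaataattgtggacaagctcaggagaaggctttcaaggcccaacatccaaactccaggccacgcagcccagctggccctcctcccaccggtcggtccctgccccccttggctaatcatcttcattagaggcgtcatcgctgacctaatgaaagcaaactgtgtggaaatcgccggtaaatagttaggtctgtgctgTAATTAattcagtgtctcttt
Emx2 promoter: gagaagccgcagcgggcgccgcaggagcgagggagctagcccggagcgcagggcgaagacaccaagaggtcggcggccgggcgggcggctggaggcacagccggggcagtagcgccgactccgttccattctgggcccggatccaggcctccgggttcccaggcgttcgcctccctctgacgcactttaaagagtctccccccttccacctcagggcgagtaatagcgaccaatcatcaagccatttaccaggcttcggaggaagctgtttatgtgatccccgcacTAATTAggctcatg
A match is a string of letters, and no binding was measured in these libraries.

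The first comparison set wild-type cerebellum against wild-type cortex of experiment 2, with 4 libraries each. En1, En2 and Barhl1 were higher in the cerebellum, and Emx1, Emx2, Otx1 and Lhx2 were higher in the cortex. These 7 passed edgeR's quasi-likelihood test at an adjusted p under 0.05, and each differed by at least 4-fold. The test called 10455 of 14001 genes, which is 74.7%, so a call alone says little. A 4-fold call was rarer, at 3.29% of genes for the cerebellum and 7.06% for the cortex, and 3 factors made the first and 4 the second. En1, Barhl1, Emx1, Emx2 and Lhx2 had at most 1 count in the lower tissue. They could enter the test only through the tissue where they are high, which makes a 4-fold call near certain. The number of such calls is therefore no evidence about the factors as a group. Gbx2 and Lmx1a had too few counts to be tested. Whole tissue cannot tell fewer cells of a type from less RNA per cell, for these or any later values.

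**Figure D1:**
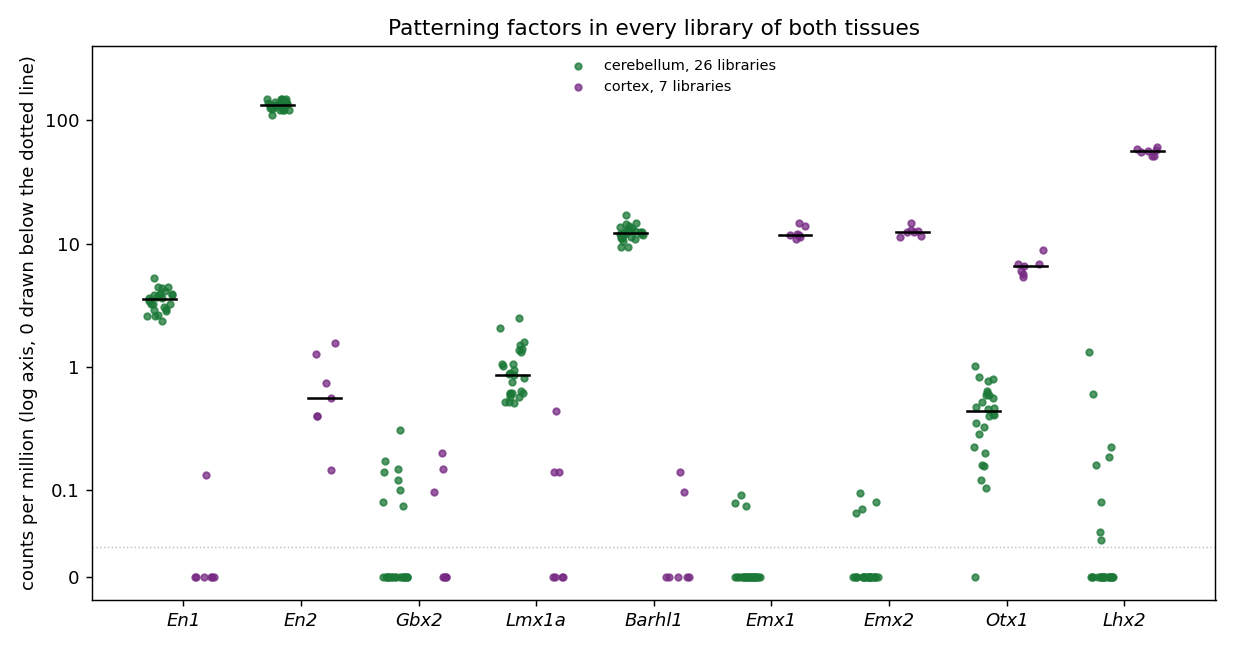
Level of each factor in every library, in CPM on a log axis, with zeros drawn below the dotted line; points are libraries and black bars are medians. En2 at 110.9 to 149.3 CPM in cerebellum and Lhx2 at 51.1 to 60.3 CPM in cortex are the highest, Gbx2 is near 0 in both tissues, and Otx1 is the cortical factor with counts in nearly every cerebellum library.

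En2, an engrailed repressor that helps to pattern the cerebellar folia, stood at 123.2, 129.8, 134.3 and 121.1 CPM in the wild-type cerebella and at 0.399, 1.27, 0.144 and 0.555 CPM in the cortices. All 4 cerebella were far above all 4 cortices. The log2 difference was 7.72 (SE 0.143, edgeR adjusted p = 7.1e-23), with 5779 counts against 17. Although low, En2 was not at 0 in any of the 7 cortex libraries, which held 42 counts together. In wild type, replicate 2 held 9 of the 17 En2 counts, and it also held 9 of 10 counts of Gabra6, 34 of 45 of Cbln3 and 34 of 58 of Fat2, all granule cell markers. The mean En2 level was 0.591 ± 0.480 CPM (SD, n = 4) with that library and 0.366 ± 0.207 CPM (SD, n = 3) without it, and the log2 difference was then 8.38. In the Mir7DKO cortices En2 had 25 counts, 16 of them in replicate 2, where Gabra6 had 0 in all 3 and Cbln3 had 12. The part of cerebellar RNA in these En2 counts was not tested.

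En1, the engrailed paralogue with a wider role at the midbrain-hindbrain boundary, read 3.80, 2.55, 3.82 and 2.86 CPM in the cerebella. In the cortices, 1 library held a single count and the others held none. The groups did not overlap, and 148 counts against 1 give a ratio of 93.8 with a 95% counting interval of 16.6 to 3730. Barhl1, which supports granule cell differentiation, read 12.3, 11.4, 9.30 and 10.8 CPM in the cerebella, again with 1 count in all 4 cortices. Its ratio was 313, with a counting interval of 55.8 to 12400. Such intervals cover counting error only.

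Lmx1a, a LIM-homeodomain factor of the roof plate, was low in both tissues. It read 0.499, 0.567, 0.795 and 1.39 CPM in the cerebella and 0, 0.141, 0.432 and 0.139 CPM in the cortices. The groups did not overlap, which held for 68.3% of the genes tested. With 38 counts against 5, the ratio was 4.82 and its counting interval 1.89 to 15.7. Gbx2, which sets the posterior side of the boundary in the embryo, had 1 count in the 4 cerebella and 0 in the 4 cortices, so no difference was detectable at this depth.

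Lhx2, a LIM-homeodomain selector of cortical fate, read 56.9, 51.0, 57.6 and 54.5 CPM in the cortices and had 0 counts in the 4 cerebella. The cortical level was at least 833-fold higher, taking 3 counts over the group as the limit that a count of 0 allows. Emx1 read 14.6, 13.8, 11.2 and 10.8 CPM in the cortices and 0 in the cerebella, at least 191-fold higher. Its paralogue Emx2 read 12.5, 11.4, 11.4 and 12.8 CPM, with 1 count in the cerebella and a ratio of 546 (counting interval 97.3 to 21600). All 12 cortical values of these 3 genes were above every cerebellar value of the same gene.

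Otx1, an orthodenticle factor of deep cortical layers, was the only factor higher in cortex that had counts in every wild-type cerebellum. It read 5.99, 6.89, 6.77 and 8.74 CPM in the cortices and 0.200, 0.755, 0.318 and 0.818 CPM in the cerebella. The groups did not overlap, but the log2 difference of -3.71 (SE 0.280, edgeR adjusted p = 3.1e-11) was the smallest of the 7. Over all 26 cerebellum libraries Otx1 was at 0 in 1. Emx1 was at 0 in 23, Emx2 in 22 and Lhx2 in 18 of them.

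Features that overlap a factor's locus were checked beside it. Emx2os, a noncoding RNA on the opposite strand that overlaps 264 exonic bases of Emx2, had 118 counts in the wild-type cortices and 0 in the cerebella, at least 62-fold higher. D130058E05Rik, antisense to Gbx2 over 946 exonic bases, had 2 counts and 1. Gm13584, inside Lhx2 on the opposite strand, had 0 in both tissues. The libraries were stranded, but no source names the strand setting of the counting, so reads in the overlaps cannot be assigned with certainty.

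The same tissue comparison in the Mir7DKO libraries of experiment 2 (3 against 3) called the same 7 factors in the same directions, where the test called 68.2% of 14431 genes. En2 read 131.9, 125.4 and 119.6 CPM in cerebellum and 0.740, 1.54 and 0.395 CPM in cortex, a log2 difference of 7.08 (SE 0.163, edgeR adjusted p = 1.5e-19). Otx1 read 0.160, 0.460 and 0 CPM in cerebellum and 5.33, 6.45 and 5.63 CPM in cortex, a log2 difference of -4.73 (SE 0.397, edgeR adjusted p = 7.8e-10). The groups of each of these genes stayed apart, as for 71.3% of the genes tested. The level was at least 30.4-fold higher in cerebellum for En1, and at least 150-fold and 164-fold higher in cortex for Emx1 and Emx2. Lmx1a had 56 counts in these cerebella and 0 in the cortices, at least 13.3-fold higher. The cerebella held 31, 17 and 8 of these counts, and their summed levels of choroid plexus markers were 1507, 1114 and 217.4 CPM. In the cortices the sums were 285.3 to 307.5 CPM. The part of choroid plexus tissue in this difference was not tested.

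Compared per kilobase of exon, which allows levels of different genes to be set side by side, the order was the same in every library of a tissue for the genes compared here. In all 26 cerebellum libraries En2 was above Barhl1 and Barhl1 above En1 in CPM per kilobase. En2 exceeded En1 by 19.7 to 42.9 times (median 27.5), and Barhl1 exceeded En1 by 1.64 to 3.47 times (median 2.38). In all 7 cortex libraries the order was Lhx2, Emx1, Emx2, Otx1. The order of Emx1 and Emx2 depends on their annotated exon lengths of 2184 and 3002 bases. In CPM, Emx2 was above Emx1 in some cortex libraries, as in Mir7DKO replicate 1 (14.6 against 12.1 CPM). It was below in others, as in wild-type replicate 1 (12.6 against 14.8 CPM). Lhx2 exceeded Emx1 by 1.84 to 2.55 times, Emx1 exceeded Emx2 by 1.14 to 1.66 times, and Emx2 exceeded Otx1 by 2.64 to 4.92 times, all per kilobase. En1 and En2, and Emx1 and Emx2, are paralogues, and no source says how reads that fit both members of a pair were counted.

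The counts of calls in the following lists are to be read against the 74.7% of all genes called. Their medians cover only genes with enough counts to be tested. A gene near 0 in 1 tissue is tested only if it is high in the other. The lists were also written with earlier results of these data known, so the medians are a description and not support. Of 16 isthmic organiser genes, 8 were tested, 4 were higher in wild-type cerebellum and 2 lower, with a median log2 difference of 1.44 against 0.01 over all genes. A share of 6 in 8 is near that background. Cnpy1, an FGF signalling factor of the isthmus, stood at 574.8 ± 19.2 against 0.387 ± 0.589 CPM (SD, n = 4 each), and the paired-box gene Pax2 at 8.36 ± 1.76 against 0.209 ± 0.142 CPM. Irx2, an Iroquois homeodomain gene, stood at 5.10 ± 0.634 CPM with 1 count in cortex, while Sp8 had 0 counts in cerebellum and 2.23 ± 0.337 CPM in cortex. Fgf8, Wnt1 and Pax5 were among the 8 that were too low to test.

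Of 16 rhombic lip and granule lineage factors, 14 were tested, 13 were higher in cerebellum and 1, Meis2, was lower. The median log2 difference was 4.01. Barhl2, the paralogue of Barhl1, stood at 43.8 ± 2.14 against 0.485 ± 0.266 CPM, Zic1 at 1092 ± 51.2 against 20.3 ± 1.68 CPM, and Eomes, a marker of unipolar brush cells, at 22.4 ± 4.26 against 0.423 ± 0.414 CPM (SD, n = 4 each). Tlx3 stood at 3.43 ± 0.759 CPM in cerebellum and had 0 counts in cortex. Atoh1, the proneural gene of the embryonic rhombic lip, was too low to test.

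Of 22 ventricular zone and hindbrain identity factors, 9 were tested, 6 higher and 3 lower, with a median log2 difference of 6.26. Lhx1 (73.9 ± 3.97 against 0.138 ± 0.115 CPM), Lhx5 and Pax3 were among those higher, and Egr2, also an activity-induced gene in cortical neurons, was lower with 1 count in the cerebella and 4.59 ± 2.09 CPM in the cortices. All 8 Hox genes of the list were too low to test.

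Of 24 forebrain patterning factors, 20 were tested, 15 were lower in cerebellum and 3 higher. This list holds none of the factors studied here, but it shares Sp8 and Lhx5 with the lists above. The median log2 difference was -3.96 with genes at 0 set to their limit. Fezf2 at 28.1 ± 5.56 CPM and Six3 at 7.82 ± 2.76 CPM in cortex both had 0 counts in the 4 cerebella (SD, n = 4). The 3 that were higher were Bhlhe22, Lhx5 and Neurod2. Of 11 ganglionic eminence factors, 7 were tested, 6 lower in cerebellum and 1, Ebf1, higher, with a median log2 difference of -6.38 on the same footing. Sp9, Dlx5 and Dlx2 had 0 counts in the cerebella and 6.34 ± 1.47, 4.90 ± 0.336 and 4.41 ± 0.817 CPM in the cortices, and Dlx6 had 2 counts against 9.52 ± 3.40 CPM (SD, n = 4).

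Across the 7 cerebellum groups, on 1 scale for all 33 libraries, group means of En2 ran from 121.5 ± 9.33 CPM in CyrMut to 146.4 ± 4.02 CPM in the wild type of experiment 1B. Means of Barhl1 ran from 11.1 to 13.2 CPM, of En1 from 3.30 to 4.08 CPM and of Lmx1a from 0.654 to 1.49 CPM. Neighbouring groups in each of these orders overlapped. The 2 cortex groups overlapped for Lhx2, Emx1, Emx2 and Otx1.

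**Figure D2:**
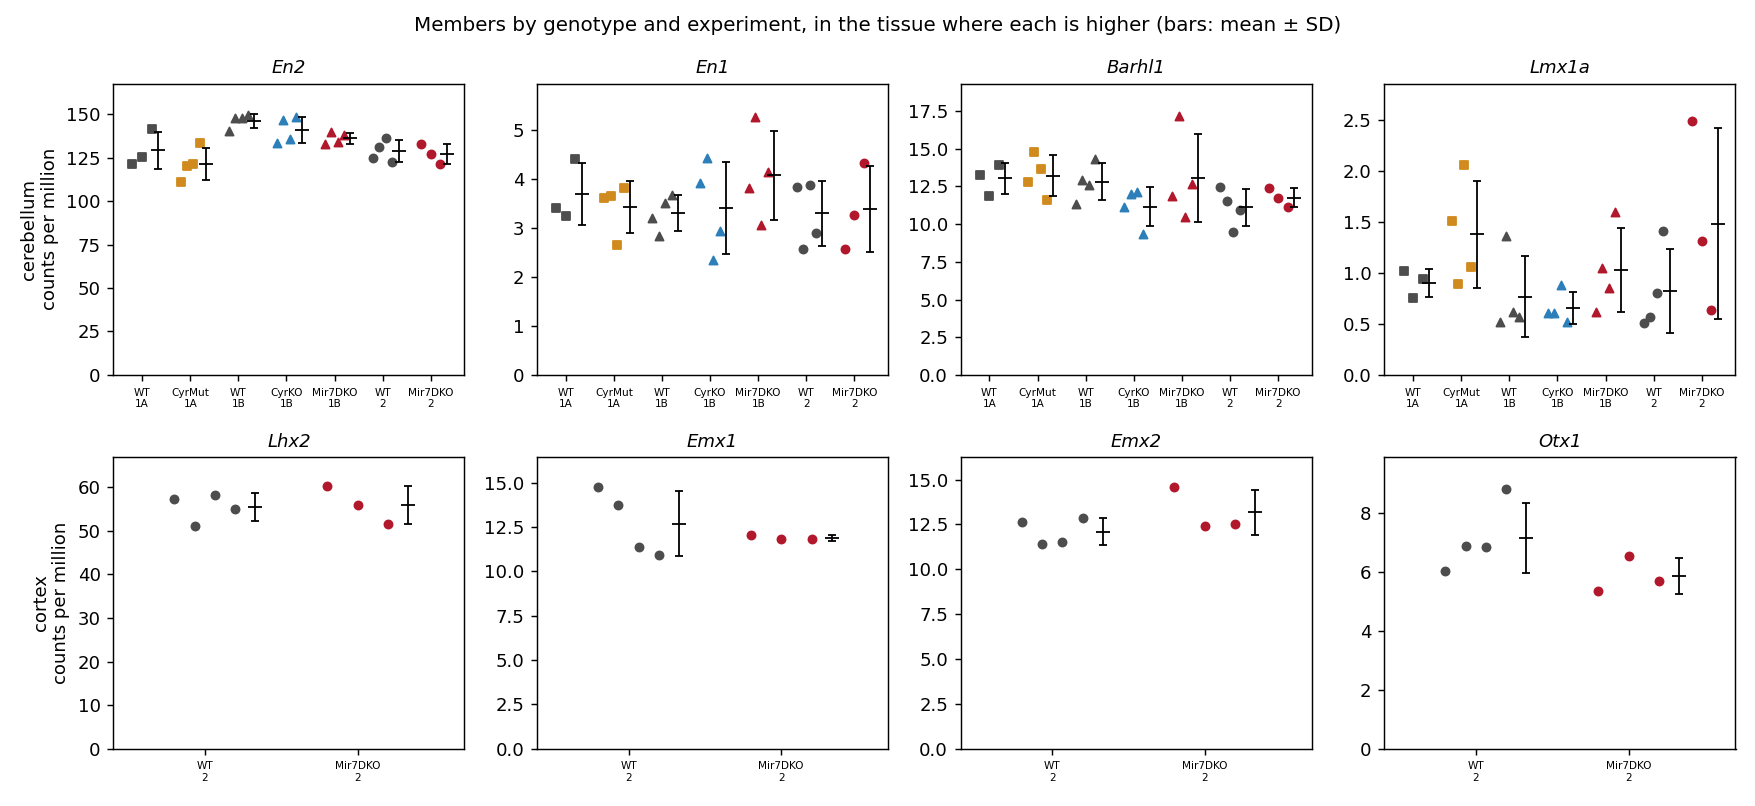
CPM by genotype and experiment for the 4 factors higher in cerebellum (top) and the 4 higher in cortex (bottom); points are libraries, and the bar beside them is the mean with its SD. En2 is the most even of the cerebellar factors, and Lmx1a spreads from 0.506 to 2.50 CPM.

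No factor passed the test in any mutant. In CyrMut, 4 factors were tested and 0 passed, where 0.00673% of 14866 genes did. En2 read 110.4, 119.9, 121.2 and 133.1 CPM against 120.6, 125.5 and 141.4 CPM in wild type, and the groups overlapped. The log2 changes were -0.09 for En2 (95% interval -0.25 to 0.07), -0.09 for En1 (-0.49 to 0.30) and 0.02 for Barhl1 (-0.20 to 0.25). With edgeR, 740 of all genes had an unadjusted p under 0.05, and none was 1 of these 4.

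CyrKO and Mir7DKO of experiment 1B shared their wild-type libraries, so their values are given side by side and not as separate evidence. In CyrKO 3 factors were tested and in Mir7DKO 4, and 0 passed in either, against 0.0220% of 13664 genes and 0.00713% of 14031 genes. The log2 change of En2 was -0.06 in CyrKO (95% interval -0.17 to 0.06) and -0.10 in Mir7DKO (-0.21 to 0.01). For Barhl1 the log2 change was -0.21 in CyrKO (-0.46 to 0.04) and 0.04 in Mir7DKO (-0.28 to 0.36), and neither passed the test.

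In Mir7DKO of experiment 1B, En2 read 135.7, 141.8, 135.8 and 141.2 CPM against 142.4, 149.8, 150.2 and 152.0 CPM. The 4 mutants were all below the 4 wild types, a separation that 2.54% of the genes tested showed, and the edgeR adjusted p was 1 (unadjusted p = 0.0635). In experiment 2 the same genotype read 134.4, 127.7 and 121.8 CPM against 126.0, 132.8, 137.3 and 123.5 CPM. There the groups overlapped, and the log2 change was -0.02 (95% interval -0.14 to 0.10).

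En1 read 3.92, 5.35, 3.10 and 4.24 CPM in Mir7DKO of experiment 1B and 3.26, 2.88, 3.56 and 3.75 CPM in its wild type. The groups overlapped, and the log2 change of 0.30 (95% interval -0.11 to 0.72) became 0.14 without replicate 2, the library that stood apart. In experiment 2 the change of En1 was 0.03 (-0.43 to 0.50) and that of Barhl1 0.09 (-0.16 to 0.34). There 4 factors were tested in the cerebellum and 0 passed, against 0.198% of 14146 genes.

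In the Mir7DKO cortex, the 4 cortical factors were tested and 0 passed, against 0.0436% of 13754 genes. Emx2, the factor with the miR-7 match printed above, read 14.2, 12.1 and 12.1 CPM against 12.2, 11.1, 11.1 and 12.5 CPM. The groups overlapped, and the log2 change was 0.11 (95% interval -0.13 to 0.35, edgeR adjusted p = 0.93). For Emx2os the log2 change was 0.19 with an edgeR adjusted p of 0.932, also short of the threshold.

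Lhx2 read 58.7, 54.3 and 49.8 CPM in the Mir7DKO cortices and 55.6, 49.9, 56.4 and 53.5 CPM in the wild types. Its log2 change was 0.01 (95% interval -0.14 to 0.15), the narrowest interval of the cortical factors. The SE behind it was derived from the test statistic and is less certain for a change so near 0. Otx1 read 5.22, 6.36 and 5.52 CPM against 5.84, 6.74, 6.62 and 8.57 CPM, a log2 change of -0.27 (-0.62 to 0.08), and for Emx1 it was -0.10 (-0.36 to 0.16). Gbx2, not tested, had 1, 1 and 2 counts in the Mir7DKO cortices and 0 in the 4 wild-type ones. Those groups do not overlap, as for 7.01% of the genes tested, on 4 counts in all.

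**Figure D3:**
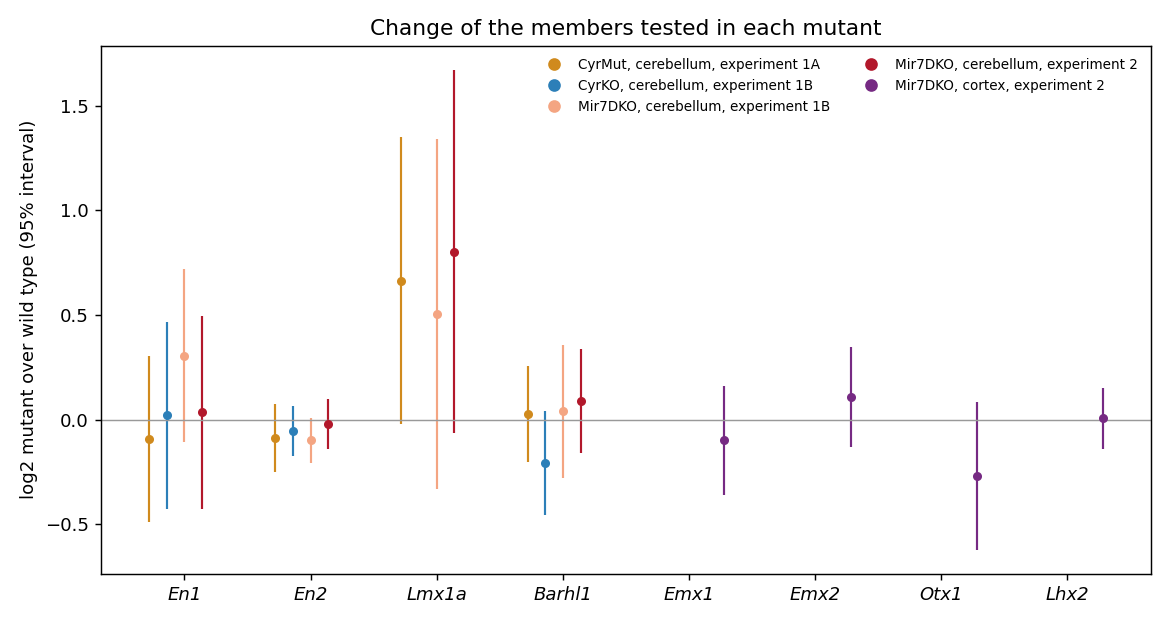
Log2 change of each factor tested in each of the 5 mutant comparisons, with its 95% interval; the line at 0 is no change. Of the 19 intervals drawn, all contain 0, and those of Lmx1a are the widest and lie mostly above it.

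The difference between the Mir7DKO change in cerebellum and in cortex was tested in 1 fit over the 14 libraries of experiment 2. It passed for 0 factors and for 0.155% of 14886 genes. For En2 the difference was -0.65 (95% interval -1.66 to 0.36) and for Otx1 -1.02 (-2.36 to 0.33) on the log2 scale. Lmx1a, with 0 counts in 1 of the 4 groups, had an unadjusted p of 0.0232 and an edgeR adjusted p of 0.987. For Barhl1 and Emx1 the interval was too wide to read. Barhl1 had 1 count in each cortex group and Emx1 had 0 counts in both cerebellum groups. Such counts cannot show a difference between the changes, so not passing says nothing for these genes. Their fitted differences were 0.03 and 0.10, and an SE derived from the test statistic is also unreliable for a difference near 0.

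Lmx1a ran from 0.506 to 2.50 CPM over the 26 cerebella. In CyrMut it read 1.50, 0.889, 2.06 and 1.06 CPM against 1.01, 0.752 and 0.946 CPM, a log2 change of 0.66 (95% interval -0.02 to 1.35, edgeR adjusted p = 0.944). In Mir7DKO of experiment 2 it read 2.52, 1.33 and 0.644 CPM against 0.511, 0.580, 0.813 and 1.42 CPM, a log2 change of 0.80 (-0.07 to 1.67, edgeR adjusted p = 0.772). In Mir7DKO of experiment 1B the change was 0.50 (-0.33 to 1.34, edgeR adjusted p = 1). The groups overlapped in all 3 comparisons. In CyrKO it was too low to test, with 26 counts against 34.

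Choroid plexus markers were high in some of the same libraries. All 15 of 15 markers of that tissue, the epithelium that makes cerebrospinal fluid, had counts in every group, and their summed level ran from 158.5 to 2574 CPM. The sums were 1978, 254.4, 2574 and 1746 CPM in CyrMut and 874.7, 196.9 and 214.3 CPM in its wild type. They were 1507, 1114 and 217.4 CPM in Mir7DKO cerebellum of experiment 2 and 215.9 to 260.9 CPM in its wild type. In both experiments the mutant library with the most Lmx1a also had the highest sum.

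The same held within wild-type and Mir7DKO libraries of experiment 1B. Replicate 2 of the wild type had 1.37 CPM of Lmx1a and a choroid sum of 892.2 CPM, while the other 3 had 0.523 to 0.618 CPM and sums of 188.2 to 219.3 CPM. Replicate 4 of Mir7DKO had 1.60 CPM and a sum of 690.2 CPM, the highest of its group in both. Over the 7 cerebellum groups, the library with the most Lmx1a also had the highest sum in 5. It did not in the wild type of experiment 2, where replicate 4 had 1.41 CPM of Lmx1a with a sum of 216.4 CPM, nor in CyrKO. There replicate 3 had the most Lmx1a, 0.882 CPM with a sum of 203.5 CPM, and replicate 1 the highest sum, 465.1 CPM with 0.612 CPM of Lmx1a. Replicate 2 of Mir7DKO in experiment 1B also had 1.05 CPM of Lmx1a at a low sum of 198.3 CPM. The part of choroid plexus tissue in these Lmx1a levels was not tested.

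**Figure D4:**
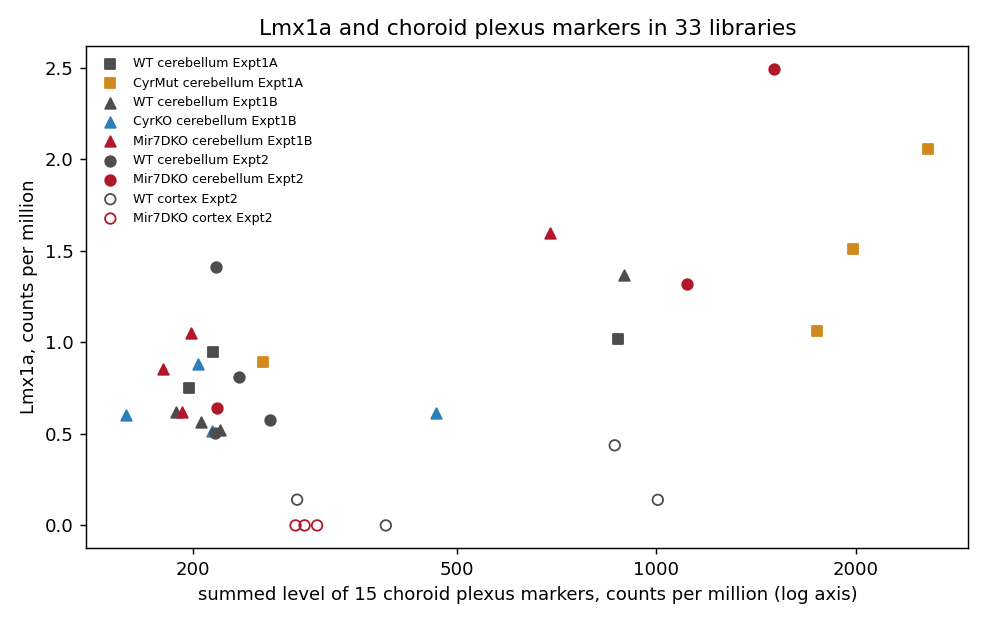
Lmx1a in CPM against the summed level of 15 choroid plexus markers on a log axis, 1 point a library, with cortex as open symbols. The Mir7DKO library at 2.50 CPM and the CyrMut library at 2.06 CPM have sums of 1507 and 2574 CPM, and the 3 Mir7DKO cortices at 0 have sums of 285.3 to 307.5 CPM.

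Leaving out the Mir7DKO library with the highest Lmx1a in experiment 2, replicate 1, moved the log2 change from 0.80 to 0.22. Leaving out CyrMut replicate 3 moved that change from 0.66 to 0.38, and leaving out Mir7DKO replicate 4 in experiment 1B moved 0.50 to 0.23, while leaving out wild-type replicate 2 there raised it to 0.88. Among the choroid plexus markers themselves, 7 of 11 tested were higher in Mir7DKO cerebellum of experiment 2 and 0 were lower (median log2 change 2.59, against 0.00 over all genes), and in CyrMut 0 of 15 passed with a median of 2.16. In wild-type cortex Lmx1a had its 5 counts in libraries with sums of 286.9, 865.3 and 1005 CPM, and 0 in the library at 390.5 CPM.

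Lhx2 was at 0 in 18 of the 26 cerebellum libraries, but 20 of its 37 cerebellar counts came from replicate 2 of Mir7DKO in experiment 1B. That library read 1.32 CPM, and the other 3 of its group read 0 to 0.160 CPM. With it the group mean was 0.369 ± 0.636 CPM (SD, n = 4), and without it 0.0532 ± 0.0922 CPM (SD, n = 3). The next highest was replicate 2 of CyrKO, with 6 counts and 0.606 CPM. Lhx2 did not pass the count filter in any cerebellum comparison, so no test of it rests on that library.

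Some other genes of that library stood above the other 25 cerebella. Lhx9, a close relative of Lhx2, read 8.29 CPM there and at most 1.52 CPM elsewhere, and Six3, a forebrain homeodomain gene, 1.71 against at most 0.303 CPM. Tcf7l2, strong in thalamus, read 39.6 against 6.62 to 12.3 CPM, and Slc17a6, a glutamate transporter of thalamus and brainstem, 39.2 against at most 27.5 CPM. Of the 7 thalamus markers, all with counts in every group, these 2 were the only ones above the other cerebella. The 7 summed to 221.3 CPM there and 160.3 to 190.5 CPM in the other cerebella, but the remaining 5 summed to 142.6 CPM, inside the 140.1 to 161.3 CPM of the others.

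**Figure D5:**
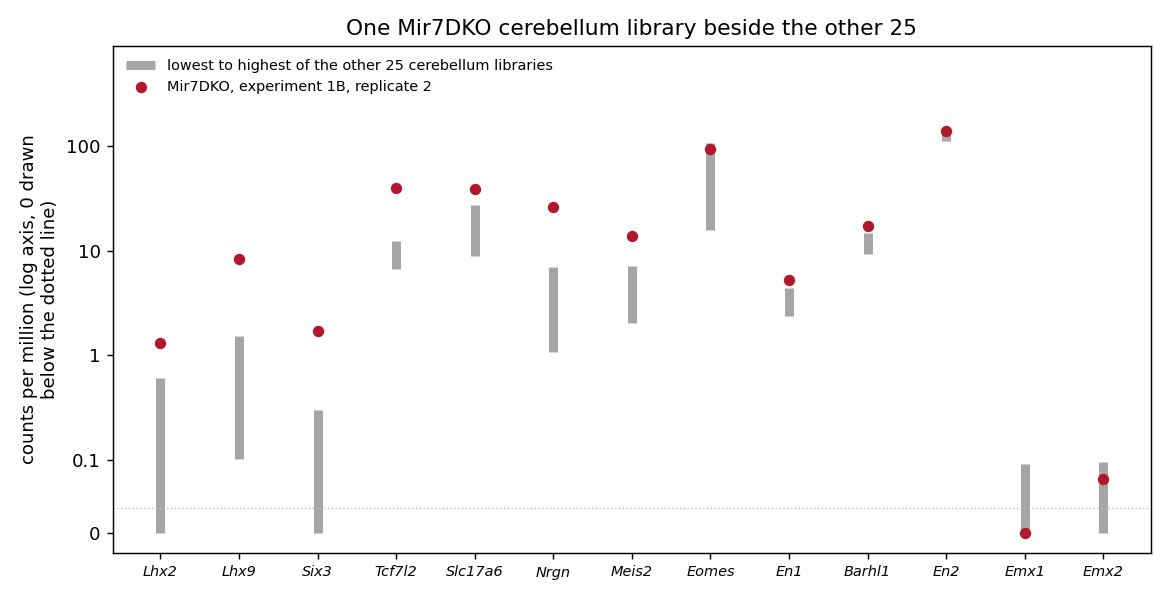
CPM on a log axis in replicate 2 of Mir7DKO cerebellum, experiment 1B (red), and the lowest to highest level of the other 25 cerebellum libraries (grey), with zeros below the dotted line. Lhx2, Lhx9, Six3, Tcf7l2, Slc17a6, Nrgn, Meis2, En1 and Barhl1 lie above the grey range. Eomes, En2 and Emx2 lie inside it, and Emx1 is at 0.

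The cortical factors did not rise with Lhx2 there. Emx1 had 0 counts and Emx2 1 count in that library. Nrgn, abundant in forebrain excitatory neurons, read 26.3 CPM against 1.08 to 6.96 CPM in the other cerebella, and 1055 to 1175 CPM in cortex. En1 at 5.26 CPM and Barhl1 at 17.2 CPM were also the highest of all 26 cerebella, where the others reached 4.44 and 14.8 CPM, while En2 at 139.6 CPM lay inside the range. The part of tissue from outside the cerebellum in this library was not tested.

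The genes most like each factor, up to 3, were found by Pearson's r of log2 CPM after removing group means, over 14910 genes in the 26 cerebella and 13754 genes in the 7 cortices. They are a description from libraries that share dissection and depth. For Lmx1a they were Slc2a12 (r = 0.768), Ace (r = 0.755) and Ezr (r = 0.755), for En2 Pias3 (r = 0.744) and 2610524H06Rik, and for Barhl1 Pld3 (r = 0.761), Spock2 and Fam163b. For En1 they were Rpl6 (r = 0.716), Gm8492 and Gm13476. Gbx2 had too few counts for such a search.

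Over 7 cortex libraries many genes reach a high r, so those values say less. The nearest to Lhx2 was Antxr1 (r = 0.998), to Otx1 Snx4 (r = 0.993), to Emx1 Ddx46 (r = 0.992) and to Emx2 Pip4k2b (r = 0.985). None of these was another of the 9 factors.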

How the data were processed

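The authors' 5 tables were read with their deposited raw counts per gene. Per the submitters' processing notes, reads were handled with STAR 2.4, HTSeq 0.6.1p1 and DESeq2 1.10 on mm10/GRCm38, with no role or strand setting given. In the CyrMut table, 1 record (Myo15) lacked its base mean, and its later values were moved back by 1 column. The 37 columns of normalised values were not used.

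From the counts, edgeR 4.0.16 (R 4.3.3) kept genes with its filter at a minimum count of 10, scaled by TMM, and ran the quasi-likelihood test with Benjamini-Hochberg adjustment over all genes tested, threshold 0.05. Each comparison used only its own groups. DESeq2 1.42.0, other filters and scalings, and fits without 1 library were alternatives, and the scripts were tested on simulated data. Levels are CPM on TMM-scaled totals of the comparison, or of all 33 libraries for ranges across groups. Exon lengths and 3′ regions came from GENCODE M21, in which 36639 of 38393 features have a gene model, and promoters and microRNAs from RefSeq. Sequences of the proteins were not used here. Library pairs within a group differed beyond sampling noise.

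The 9 factors and the lists were chosen with earlier results of these data known. Genes named besides the factors are those overlapping a factor, up to 4 of the largest called in each list, and the 3 most like each factor by correlation; other names were chosen after their values were seen. Some genes that this rule would name are not reported here. Replicate numbers were not treated as pairs.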

Additional observations from a re-analysis of the deposited data

Results flagged for a closer look

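In 31 combinations of a factor and a group of 4 libraries, each with at least 10 counts, 1 library was far from the others in 3. The rule flags about 1 in 20 sets of normally distributed values. These combinations share libraries and some hold low counts, so that rate may not apply to them. En1 in CyrMut, replicate 3, read 2.65 CPM on 58 counts, below 3.62 to 3.81 CPM in the other 3. Lmx1a in the wild type of experiment 1B, replicate 2, read 1.37 CPM on 13 counts, above 0.523 to 0.618 CPM in the others, and that library had the highest choroid plexus sum of its group. Lhx2 in Mir7DKO of experiment 1B, replicate 2, read 1.32 CPM on 20 counts, above 0 to 0.160 CPM in the others.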

How the results depend on the processing

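In the mutant comparisons and the difference between tissues, 0 factors passed under any alternative. In both tissue comparisons 7 passed, 6 with a minimum count of 30, and 8 with no count filter or with all 14 libraries in 1 fit. Every tested factor kept its side of the threshold. Counts over all genes moved more. With no count filter they were 43 for CyrMut, 10 for CyrKO, 4 for the Mir7DKO cerebella of experiment 1B, 184 and 48 in Mir7DKO cerebellum and cortex of experiment 2, and 74 for the difference. DESeq2 gave 4, 5 and 12 in CyrMut, Mir7DKO of experiment 1B and the difference, where edgeR gave 1, 1 and 23. A minimum count of 30 gave 0 in Mir7DKO of experiment 1B and 10 in Mir7DKO cerebellum of experiment 2, against 28, and the fit of all 14 libraries gave 55. The cause was not tested.

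Leaving out 1 library gave 10190 to 10446 calls for the wild-type tissue difference, 9251 to 9965 for that in Mir7DKO, 1 to 17 for CyrMut, 3 to 10 for CyrKO, 0 to 2 for Mir7DKO of experiment 1B, 3 to 70 and 4 to 11 in Mir7DKO cerebellum and cortex of experiment 2, and 1 to 48 for the difference. A fit with replicate number as a block gave 2 calls in Mir7DKO of experiment 1B and 19 in Mir7DKO cortex, against 1 and 6, with no factor among them. After removing group means, correlations of same-numbered libraries ran from -0.22 (CyrKO, replicate 2) to 0.31 (Mir7DKO of experiment 1B, replicate 4). They were all positive in Mir7DKO of experiment 1B, in Mir7DKO cortex and in the Mir7DKO tissue comparison, and of both signs in the others.

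Depth limits Gbx2 everywhere, the cortical factors in cerebellum and the cerebellar ones in cortex, where groups hold a few counts.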
